A study of Mus musculus with 22 samples.

Results

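Interneuron marker genes were followed through 16 pulldowns of astrocyte ribosomes and 5 input libraries from mouse visual cortex. The relative level of each transcript in pulldown was compared with that in input. The 10 genes were chosen by name from the 24537 genes of the expression table. They were Sst, Vip, Pvalb, Gad1, Gad2, Slc32a1, Crhbp, Npy, Cck and Crh. All mice were C57BL/6J and carried the 73.12 GFAP-cre driver with RPL22-HA, a ribosomal protein that gains an HA tag where Cre has acted, so that ribosomes of GFAP-cre cells can be pulled down with an antibody to HA. An input is RNA of the same dissected tissue without the pulldown.

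The 5 groups were mice reared in the dark to postnatal day 45 (4 pulldowns, replicates 1, 4, 5 and 6), mice of day 120 exposed to 10 days of darkness (3 pulldowns, replicates 1, 3 and 4), mice reared normally to day 45 (3 pulldowns), and the cortex contralateral or ipsilateral to the closed eye after 2 days of monocular deprivation at day 28 (3 pulldowns each). Each group had 1 input. Dark-reared replicate 2 was not analysed here. The series calls its libraries biological replicates, and how many animals entered each one is not given in the sources used here.

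Cortical interneurons release GABA. GAD67 and GAD65, the products of Gad1 and Gad2, make it, and VGAT, the product of Slc32a1, loads it into vesicles. Sst, Vip and Pvalb mark the 3 main interneuron classes, with the neuropeptides somatostatin and VIP and the calcium-binding protein parvalbumin. Npy, Cck, Crh and Crhbp encode other peptides and a binding protein that are found in subsets of interneurons, and Cck is also transcribed in many cortical excitatory neurons. Astrocytes are not known as a main source of these transcripts, so such genes can serve as a measure of neuronal RNA in an astrocyte preparation. The members lie on 8 chromosomes. Those read most closely besides the 3 shown next are Gad1 (chr2:70553072-70602014, plus strand), Gad2 (chr2:22622205-22693874, plus strand), Slc32a1 (chr2:158610767-158615748, plus strand), Npy (chr6:49822710-49829507, plus strand), Pvalb (chr15:78191114-78206400, minus strand) and Crh (chr3:19693401-19695396, minus strand), as whole genes of GENCODE vM21 on GRCm38.

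Sst and Vip held the smallest shares of the input among the class markers, and Cck reached the largest, so their promoters are shown. The cAMP response element, the site bound by CREB and known from the Sst promoter, is a classical activity-responsive element. Its part in the comparisons with vision was not tested. The sequences run 5′ to 3′ from 250 bases before to 50 bases after the transcript start, from RefSeq on GRCm38.p6. Sst lies on the minus strand at chr16:23890795-23891094, Vip on the plus strand at chr10:5638968-5639267 and Cck on the minus strand at chr9:121495645-121495944. Capitals mark the full element TGACGTCA in Sst and its 5-base core TGACG, or the reverse complement CGTCA, in Vip and Cck.
Sst: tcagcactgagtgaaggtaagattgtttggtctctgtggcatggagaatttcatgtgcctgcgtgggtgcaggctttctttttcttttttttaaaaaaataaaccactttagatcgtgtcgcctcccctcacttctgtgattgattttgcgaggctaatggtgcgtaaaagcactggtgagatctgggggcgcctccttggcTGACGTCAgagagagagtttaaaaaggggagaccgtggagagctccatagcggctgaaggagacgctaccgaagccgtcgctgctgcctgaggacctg
Vip: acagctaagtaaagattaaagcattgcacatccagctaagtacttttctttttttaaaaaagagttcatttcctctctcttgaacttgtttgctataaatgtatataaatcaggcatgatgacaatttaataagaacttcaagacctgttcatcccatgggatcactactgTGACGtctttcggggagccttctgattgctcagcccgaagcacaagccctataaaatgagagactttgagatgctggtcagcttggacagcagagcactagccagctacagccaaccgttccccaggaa
Cck: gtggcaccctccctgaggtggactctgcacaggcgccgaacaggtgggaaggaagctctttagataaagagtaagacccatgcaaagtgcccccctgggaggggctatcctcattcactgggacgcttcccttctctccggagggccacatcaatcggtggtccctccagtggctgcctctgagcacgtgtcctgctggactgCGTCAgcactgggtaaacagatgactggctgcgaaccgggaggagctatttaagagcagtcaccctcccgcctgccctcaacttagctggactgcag
Of the 10 members, 9 had a promoter in the RefSeq table, with 10 promoters in all because Pvalb had a pair. The full element, searched on both strands, was found in Sst alone, against 1.79% of 32851 promoters of the same length. The core, which lies inside the full element, was found on either strand in 5 of the 10, those of Sst, Vip, Cck, Gad2 and Crhbp, against 20.8% of all promoters. A match of letters is a description and does not show binding.

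Expression was given as FPKM, fragments scaled to transcript length and library size, rounded to 0.1. Estimated depth was 21.1 to 51.3 M reads over 20 libraries, with no estimate for contralateral replicate 2. At the median depth of 34.1 M reads, a step of 0.1 FPKM stood for about 6.07 reads of Crhbp and 4.50 reads of Crh, so the values of these 2 genes below 1 FPKM rest on few reads. All 20 astrocyte markers were higher in pulldown than in input (limma, adjusted p below the threshold of 0.05), among them Aldh1l1, which is widely used to identify astrocytes, at a log2 fold change of 3.18 ± 0.09 (SE). Markers of the oligodendrocyte lineage were higher as well, 6 of 10 for oligodendrocytes and 7 of 8 for their precursors, with Cnp, a myelin enzyme, at 1.70 ± 0.11 and Olig1, a lineage transcription factor, at 1.48 ± 0.11 on the log2 scale (SE, limma adjusted p = 5.03e-11 and 1.34e-10).

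All 10 interneuron markers were lower in pulldown than in input, where 50.7% of the 12070 genes tested were lower and 26.4% were higher (limma on log2(FPKM + 1), 16 pulldowns against 5 inputs, Benjamini-Hochberg adjusted p of 0.000375 or less for each member). The median log2 fold change was -3.49 over the members and -0.31 over all genes tested. The pulldown value was also set against the single input of its group, as a percent of input with no pseudocount. FPKM is scaled to each library, so this percent, also called a share of input here, compares relative levels. It is not the fraction of a transcript's RNA that was recovered. The median percent of input over the 16 pulldowns was below 5% for 5 members, against 0.265% of genes, and below 25% for all 10, against 12.4% of genes. Pulldown and input come from the same kind of dissected tissue. In comparisons between the groups, bulk libraries cannot tell fewer cells of a type from less RNA per cell.

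**Figure D1:**
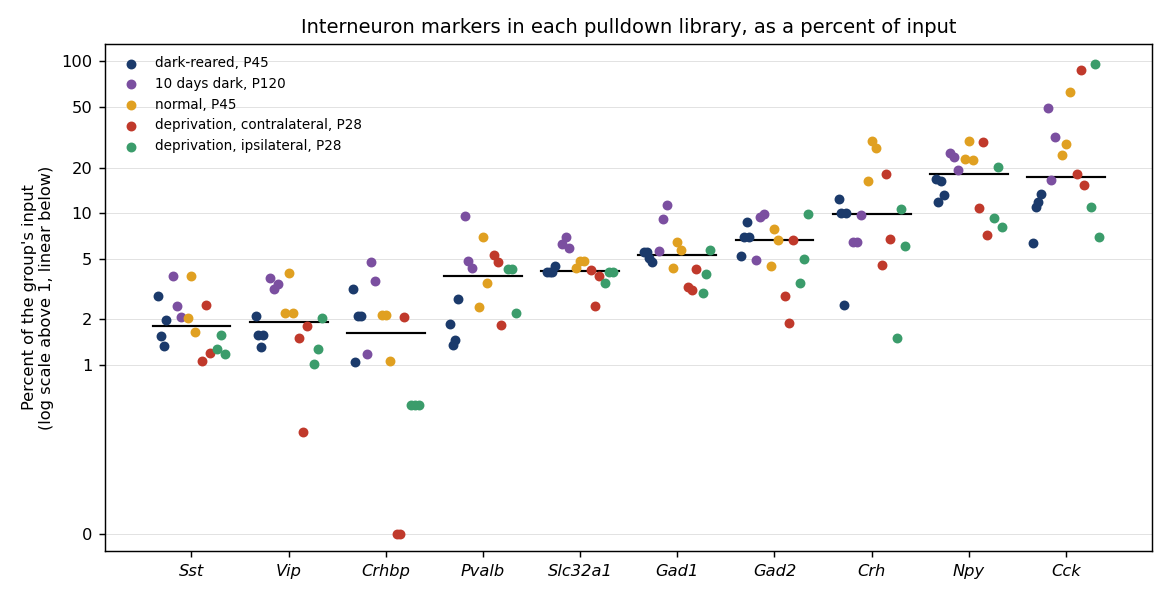
Percent of the group's input for each of the 10 members (horizontal axis) in each of the 16 pulldown libraries; points are libraries coloured by group and black lines are medians over the 16. The medians run between 1.64% for Crhbp and 18.1% for Npy, and single Cck values reach 96.5%.

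Sst was the class marker most depleted. It had 8.5, 4.6, 4.0 and 5.9 FPKM in dark-reared pulldowns against 297.5 FPKM in their input. It had 9.2, 5.9 and 5.0 FPKM in the 10-day dark pulldowns against 239.5 FPKM in input, and 4.5, 8.4 and 3.6 FPKM in normally reared pulldowns against 218.6 FPKM in input. No pulldown came near its input, and the ranges of these 3 pulldown groups overlapped. After monocular deprivation, Sst had 3.5, 8.2 and 4.0 FPKM in contralateral pulldowns against 330.4 FPKM in input, and 5.7, 7.0 and 5.3 FPKM in ipsilateral pulldowns against 444.5 FPKM in input. Sst thus kept 1.06% to 3.84% of its input, with a median of 1.82%. Its log2 fold change of -5.49 ± 0.20 (SE) was the lowest of all 12070 genes tested, and only 0.0249% of genes had a lower median percent of input.

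Vip was depleted to about the same share. It had 0.8, 0.6, 0.5 and 0.6 FPKM in dark-reared pulldowns, 1.3, 1.1 and 1.2 FPKM in 10-day dark pulldowns and 0.6, 1.1 and 0.6 FPKM in normally reared pulldowns. The inputs had 37.9 FPKM in the dark-reared, 34.8 FPKM in the 10-day dark and 27.4 FPKM in the normally reared group. It had 0.5, 0.2 and 0.6 FPKM in contralateral pulldowns against 33.1 FPKM in input, and 0.4, 0.5 and 0.8 FPKM in ipsilateral pulldowns against 39.1 FPKM in input. The 10-day dark pulldowns were the highest group, with 1 normally reared library level with the lowest of them. The share of input had a median of 1.93% and ran between 0.604% and 4.01%, and the log2 fold change was -4.38 ± 0.11 (SE). The pseudocount of 1 understates this fold change, as the median of Vip over the pulldowns was 0.6 FPKM.

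Pvalb ranged more widely between libraries, from 1.35% to 9.55% of input with a median of 3.87%. Its pulldown values were 0.9 to 5.5 FPKM, with a median of 2.55 FPKM, against 37.5 to 96.0 FPKM over the 5 inputs. Crhbp, which encodes the binding protein of corticotropin-releasing hormone, had at most 0.4 FPKM in any pulldown and was listed at 0 in contralateral replicates 1 and 2, against 8.4 to 13.1 FPKM in inputs. Crhbp had the lowest median percent of input of the 12070 genes, 1.64%, and 0.0911% of genes had a lower one than Pvalb. The log2 fold changes were -4.29 ± 0.21 for Pvalb and -3.24 ± 0.09 for Crhbp (SE), and the pseudocount of 1 understates the change of a gene as low as Crhbp.

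The 3 genes of GABA synthesis and loading stayed closer to their input than Sst and Vip did. Vip had a lower percent of input than Gad1, Gad2 and Slc32a1 in 16 of 16 pulldowns, and Sst did in 15 of 16, all but contralateral replicate 2. Gad1 held a median of 5.31% of input (3.01% to 11.3%), Gad2 6.69% (1.90% to 9.95%) and Slc32a1 4.17% (2.46% to 6.94%). The genes encode products that every GABA-releasing interneuron uses, and among these 3 Slc32a1 varied least between libraries.

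Gad1 had 3.7, 3.7, 3.4 and 3.2 FPKM in dark-reared pulldowns, 5.3, 8.6 and 10.7 FPKM in 10-day dark pulldowns and 3.5, 5.2 and 4.6 FPKM in normally reared pulldowns. It had 2.2, 2.1 and 2.9 FPKM in contralateral pulldowns and 2.1, 2.8 and 4.0 FPKM in ipsilateral pulldowns, against 66.9 to 94.3 FPKM over the 5 inputs. The 10-day dark libraries were the highest and the monocular libraries mostly the lowest. Slc32a1 showed a narrower spread, with 1.1, 1.1, 1.1 and 1.2 FPKM in dark-reared, 1.8, 2.0 and 1.7 FPKM in 10-day dark and 1.0, 1.1 and 1.1 FPKM in normally reared pulldowns. It had 1.2, 0.7 and 1.1 FPKM in contralateral and 1.1, 1.3 and 1.3 FPKM in ipsilateral pulldowns, against 22.8 to 31.8 FPKM over the inputs. The 10-day dark libraries again lay above all others. The log2 fold changes of pulldown against input were -3.95 ± 0.14 for Gad1, -3.30 ± 0.15 for Gad2 and -3.68 ± 0.09 for Slc32a1 (SE). The pseudocount of 1 understates those of Gad2 and Slc32a1, whose pulldown medians were 1.25 and 1.1 FPKM.

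Npy, a neuropeptide of an interneuron subset, kept a larger share than Sst in every library. The median was 18.1% of input (7.18% to 29.8%), and the ratio of the Npy share to the Sst share was 5.89 to 13.5 within a library, with a median of 8.51. Npy had 25.2, 17.7, 24.6 and 19.8 FPKM in dark-reared pulldowns against 149.8 FPKM in input, 26.4, 24.9 and 20.5 FPKM in 10-day dark pulldowns against 106.1 FPKM in input, and 23.6, 31.1 and 23.2 FPKM in normally reared pulldowns against 104.3 FPKM in input. It had 20.4, 55.4 and 13.6 FPKM in contralateral pulldowns against 189.4 FPKM in input, and 24.7, 53.2 and 21.6 FPKM in ipsilateral pulldowns against 265.6 FPKM in input. Replicate 2 of both monocular groups stood above every other library. Npy fell by 2.56 ± 0.24 (SE) on the log2 scale against input, and 234 genes had a lower fold change.

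Cck had the widest range of pulldown FPKM among the members. It had 38.7, 66.7, 72.1 and 81.5 FPKM in dark-reared pulldowns against 604.7 FPKM in input, 167.6, 56.1 and 107.4 FPKM in 10-day dark pulldowns against 338.1 FPKM in input, and 71.2, 83.6 and 183.7 FPKM in normally reared pulldowns against 294.6 FPKM in input. It had 73.8, 357.2 and 62.7 FPKM in contralateral pulldowns against 405.8 FPKM in input, and 58.5, 510.7 and 36.7 FPKM in ipsilateral pulldowns against 529.3 FPKM in input. In replicate 2 of both monocular groups Cck was close to its input, at 88.0% and 96.5%, and elsewhere it lay between 6.40% and 62.4%. The log2 fold change was -2.14 ± 0.47 (SE, limma adjusted p = 0.000375). Within a library the Cck share was 2.24 to 61.3 times the Sst share. Cck had the highest share of the 10 members in 10 of 16 libraries and Npy in 5, and in ipsilateral replicate 3 Gad2 had the highest.

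Crh, which encodes corticotropin-releasing hormone, was the lowest member in input, at 3.1 to 6.6 FPKM. Its share of input had a median of 9.84% and ran between 1.52% and 29.7%, where a step of 0.1 FPKM is itself a few percent of input. Its log2 fold change of -1.87 ± 0.13 (SE) is understated at this level by the pseudocount.

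**Figure D2:**
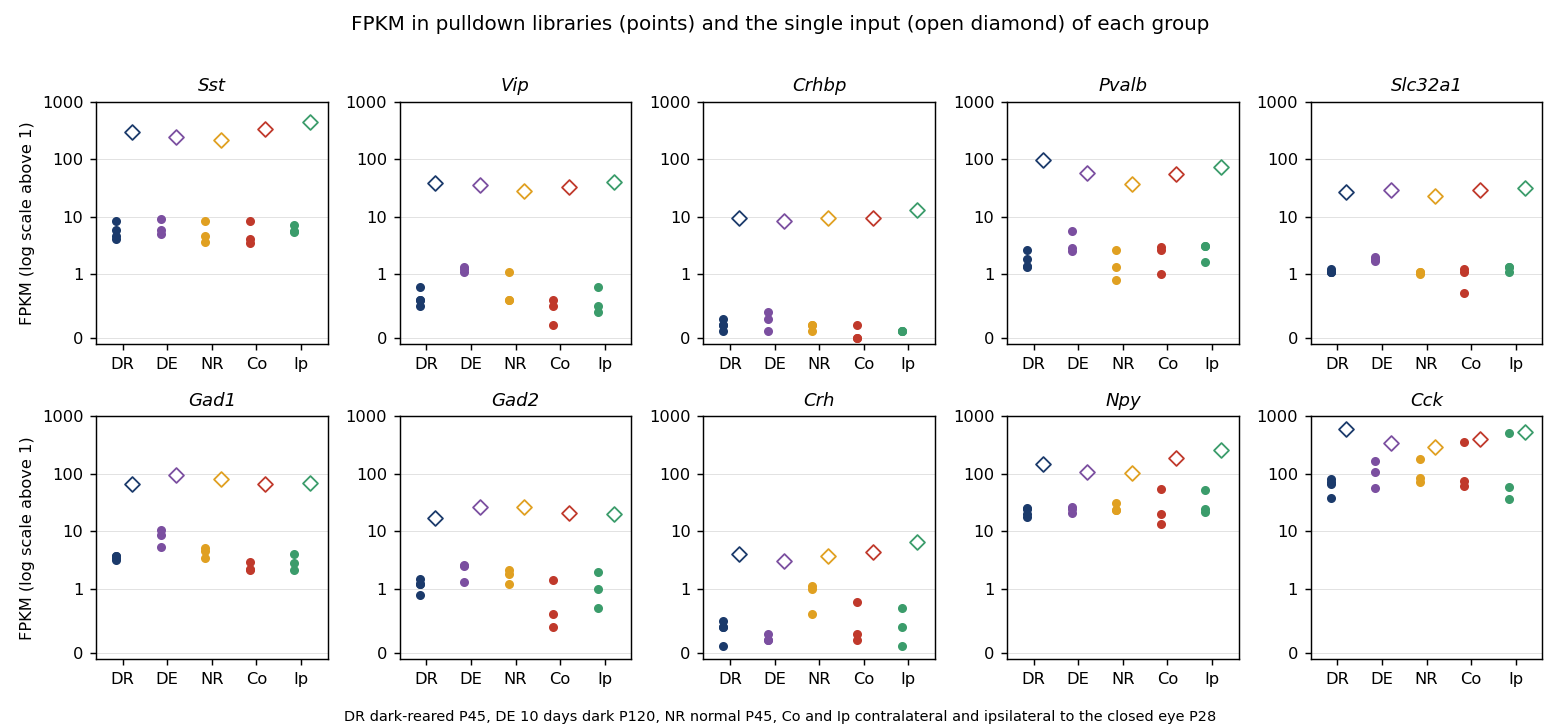
FPKM (log scale above 1, linear below) of each member in the pulldown libraries (points) and in the single input (open diamond) of the 5 groups. Cck is the gene whose pulldown points come closest to its inputs, at 357.2 and 510.7 FPKM against 405.8 and 529.3 FPKM. Sst stays at 9.2 FPKM or less against inputs of 218.6 FPKM or more.

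The markers thus differed in their percent of input within 1 and the same library. Which cells their pulldown reads came from was not tested. The median percent of input over the 10 members was 2.80% to 7.79% per library, and it lay below the medians of 3 other neuronal lists in 16 of 16 pulldowns. Those medians were 8.15% to 16.2% over 36 other interneuron genes, 7.52% to 37.6% over 20 excitatory neuron genes and 7.80% to 40.6% over 20 pan-neuronal genes. A low share was not particular to neuronal genes. The medians over 12 microglial markers were 1.87% to 41.9%, and their median over the libraries was 5.02%, against 4.66% for the members. The median log2 fold change of these 12 was -3.23. Of the other interneuron genes tested, 27 of 29 were lower in pulldown than in input, and their median log2 fold change was -2.17. Lhx6, a transcription factor of Sst and Pvalb interneurons, fell by 2.51 ± 0.08, and Tac2, which encodes neurokinin B, by 3.59 ± 0.15 on the log2 scale (SE, limma, adjusted p = 1.96e-15 and 3.01e-14). Their median percent of input was 3.39% for Lhx6 and 1.71% for Tac2, with median inputs of 6.5 and 16.5 FPKM. The pseudocount of 1 understates the log2 changes of genes this low, so these do not compare directly with those of the members. Lypd6, singled out after its values were seen, was not called, at a median of 141% of input and with limma adjusted p = 0.164.

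All 20 pan-neuronal genes were lower in pulldown, and their median log2 fold change was -2.44. Of the 19 excitatory neuron genes tested 17 were lower, and the median was -2.24. Rorb, a layer 4 transcription factor in this list, was higher, with 10.7 ± 4.82 FPKM in pulldowns against 6.20 ± 0.951 FPKM in inputs (SD, n = 16 and 5), and was named after its value was seen. Tle4, a deep-layer gene, was not called either way and was also named afterwards. Pan-neuronal medians were highest in normally reared replicate 3, ipsilateral replicate 2, 10-day dark replicate 4 and contralateral replicate 2, at 40.6%, 32.4%, 29.0% and 27.2%. Cck stood at 62.4%, 96.5%, 31.8% and 88.0% in those 4 libraries, and the members' medians there were 5.29%, 4.18%, 7.79% and 2.80%.

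**Figure D3:**
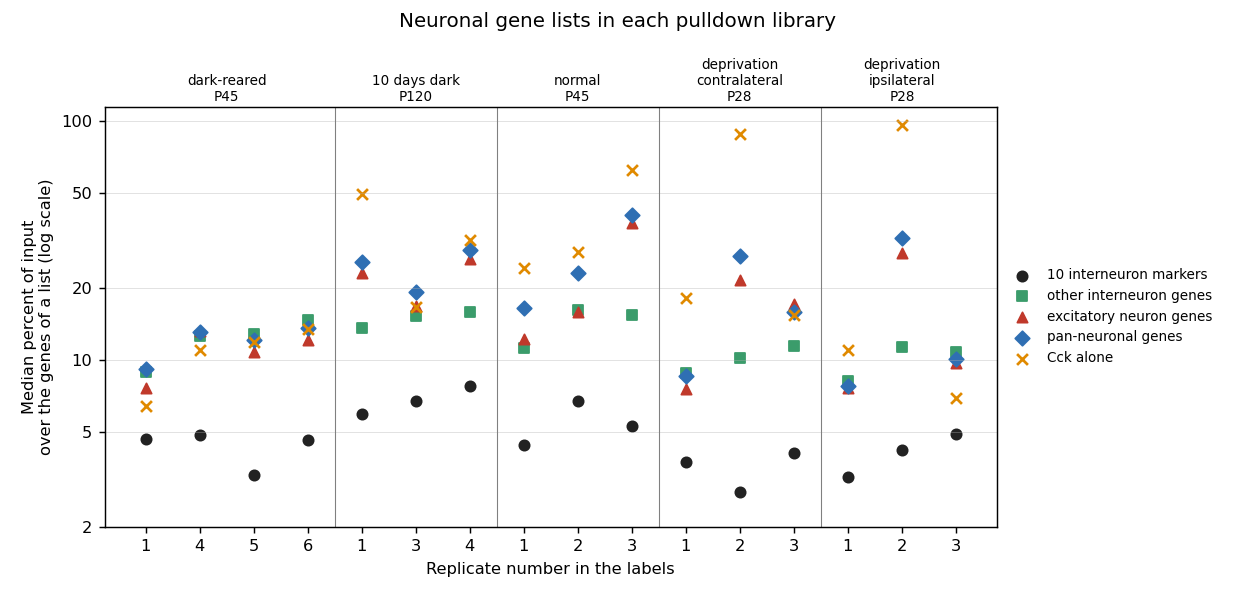
Median percent of input (log scale) over the genes of 4 neuronal lists, and the value of Cck alone, in each pulldown library by group and replicate number. The 10 members lie at 2.80% to 7.79% and below the other 3 lists in every library, while Cck moves between 6.40% and 96.5%.

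Likeness across the 16 pulldowns was described with Pearson's r of log2(FPKM + 1) against 7366 genes above 5 FPKM. The libraries share their groups and their balance of short and long transcripts, so r is given without a test. Cck was most like Bex2, Nrgn and Tubb3 (r = 0.982, 0.982 and 0.977), and Tubb3, neuronal beta-tubulin, is in the pan-neuronal list. Npy was most like Mdh2, Snrpa and Coq4 (r = 0.954, 0.919 and 0.915), of which Mdh2 encodes mitochondrial malate dehydrogenase. Gad1 was most like Iqsec1, Rpe65 and Mllt6 (r = 0.967, 0.925 and 0.922), and with group means removed r was 0.827, 0.692 and 0.601. Gad2 was most like Gid4, Inpp5e and Znfx1 (r = 0.949, 0.930 and 0.929). Pvalb was most like Fth1, Abhd17a and Rps3 (r = 0.959, 0.884 and 0.875), with ferritin heavy chain and a ribosomal protein among them. Sst was most like Rrnad1, Smarcd3 and Mrps10 (r = 0.880, 0.831 and 0.822). Slc32a1 was most like Pbx2, Dvl1 and Dcaf15 at r = 0.818, 0.810 and 0.810, and with group means removed r was 0.165, -0.041 and 0.210. For the other 5 members r moved by less than 0.05 when group means were removed. No gene was among the nearest 3 of more than 1 member.

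The balance of short and long transcripts differed between libraries, and the members' transcripts differ in length. The difference between the median log2 deviation of transcripts under 1000 bases and of those over 4000 bases was 0.81, 1.05 and -0.75 in contralateral and 0.67, 0.76 and -0.49 in ipsilateral pulldowns. It was 0.33, -0.37, -0.02 and 0.09 in dark-reared, 0.28, -0.45 and -0.54 in 10-day dark and -0.25, -0.14 and -0.83 in normally reared pulldowns. Gad2, with a transcript of 5744 bases, had 0.6, 0.4 and 1.4 FPKM in contralateral pulldowns and 0.7, 1.0 and 2.0 FPKM in ipsilateral pulldowns, so its highest library in both groups was the one poor in short transcripts. Its values were 0.9, 1.2, 1.5 and 1.2 FPKM in dark-reared, 1.3, 2.5 and 2.6 FPKM in 10-day dark and 1.2, 2.1 and 1.8 FPKM in normally reared pulldowns. The part of transcript length in the group results was not tested. Sst (721 bases), Npy (566 bases) and Cck (691 bases) are all short. Set against the median of genes of their own length class, the median shares were 1.63% for Sst, 16.8% for Npy and 16.4% for Cck.

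**Figure D4:**
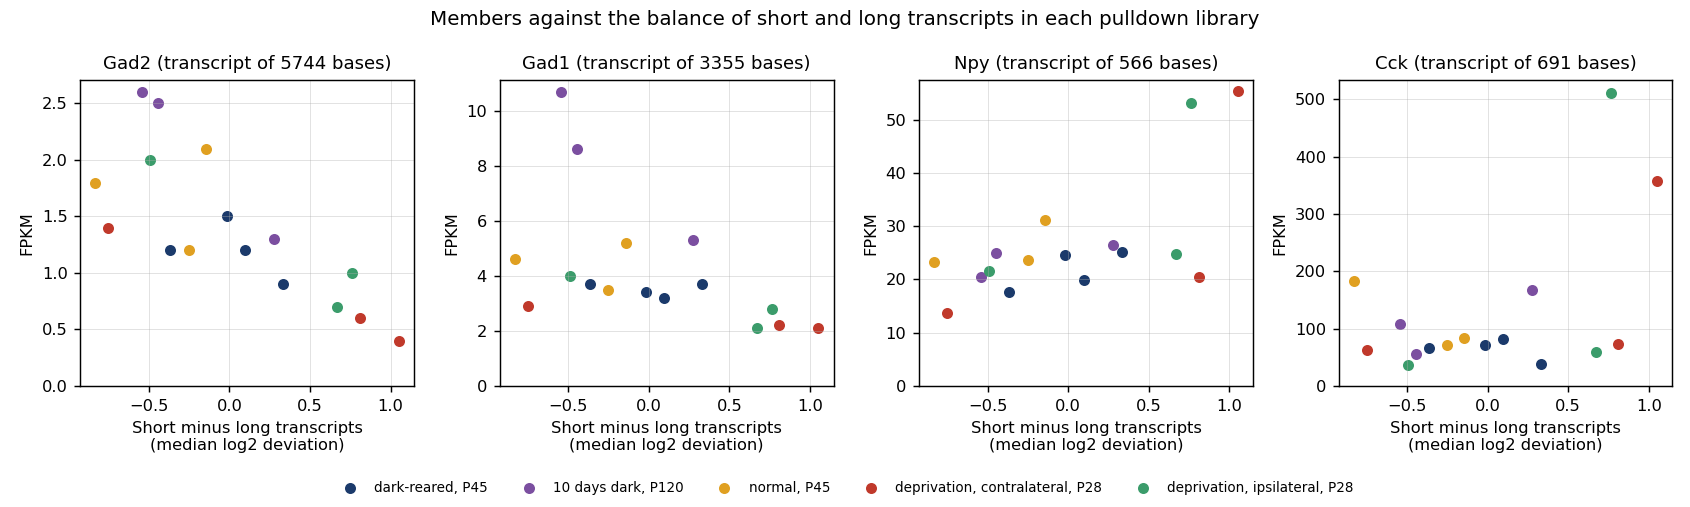
FPKM of Gad2, Gad1, Npy and Cck in each pulldown library against the library's balance of short and long transcripts (median log2 deviation of transcripts under 1000 bases minus that of transcripts over 4000 bases). Gad2 is at 0.4 to 1.0 FPKM in the 4 libraries richest in short transcripts, and the highest Npy and Cck values belong to replicate 2 of the contralateral and ipsilateral groups.

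Dark rearing was set against normal rearing at the same age, to ask whether vision during development changes astrocyte RNA. None of the 7 members with a mean above 1 FPKM passed the test, in a comparison where 0.00865% of 11562 genes did (limma, 1 gene). None of these 7 was at an unadjusted p under 0.05, where 5.54% of genes were. Cck had the largest difference, with 64.8 ± 18.4 FPKM in dark-reared and 113 ± 61.7 FPKM in normally reared pulldowns (SD, n = 4 and 3), a log2 fold change of -0.71 ± 0.77 (SE). The log2 fold changes of the other 6 lay between -0.29 for Gad2 and 0.12 for Pvalb. Each of these differences was smaller than 1.5 times its SE.

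Crh was below the filter. It had 0.5, 0.4, 0.1 and 0.4 FPKM in dark-reared pulldowns against 0.6, 1.1 and 1.0 FPKM in normally reared pulldowns. The dark-reared libraries all lay below the normally reared ones, as in 4.22% of the 3342 genes with a mean of 0.1 to 1 FPKM. Tested without the filter, the log2 fold change was -0.49 ± 0.16 (SE, limma unadjusted p = 0.00937, adjusted p = 0.917). The 20 pan-neuronal genes all had negative log2 fold changes with a median of -0.75, against -0.24 over the 7 members and -0.08 over all genes, of which 7555 of 11562 were negative. None of these 20 passed the test, and Celf4, a neuronal RNA-binding protein, had the smallest p at -1.07 ± 0.32 (SE, limma adjusted p = 0.866). The pan-neuronal share of input was 9.16% to 13.6% in dark-reared and 16.4% to 40.6% in normally reared pulldowns. Each share is taken against a different single input. The summed pan-neuronal level overlapped, at 665.5 to 914.2 FPKM in dark-reared and 906.2 to 2157 FPKM in normally reared pulldowns. The median share over 10 endothelial and mural markers was 8.06% to 25.9% in dark-reared and 6.07% to 7.70% in normally reared pulldowns. Their summed level overlapped as well, at 20.4 to 38.1 FPKM in dark-reared and 17.8 to 26.6 FPKM in normally reared pulldowns. The part of either in the members' values was not tested.

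The cortex contralateral to the closed eye was set against the ipsilateral cortex, the hemisphere less driven by that eye, after 2 days of deprivation. None of the 7 members passed the test, as with 0% of 11562 genes, and none of these 7 was at an unadjusted p under 0.05, where 84 genes or 0.727% were (limma). The log2 fold changes lay between -0.31 ± 0.25 for Gad2 and 0.19 ± 0.82 for Cck (SE), and 6 of 7 were negative, as were 8063 of all 11562 genes. The spread was wide for Cck and Npy, with replicate 2 above replicates 1 and 3 in both hemispheres. Same-numbered libraries deviated together, with correlations of 0.802, 0.790 and 0.903 over 11562 genes. The fold changes and SE above come from a fit without a replicate block, which leaves that likeness out. With the replicate number as a block, no member was called either.

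Mice of day 120 after 10 days of darkness were set against normally reared mice of day 45, and here darkness and age cannot be told apart. None of the 7 members passed the test, where 0.0865% of 11562 genes did (limma, 9 higher and 1 lower). At an unadjusted p under 0.05 there were 3 of these 7, Slc32a1, Gad1 and Pvalb, where 3.82% of genes were. Without the filter, Vip had a log2 fold change of 0.33 ± 0.14 (SE, limma unadjusted p = 0.0367, adjusted p = 0.777). Gad1 averaged 8.20 ± 2.72 FPKM in the 10-day dark group and 4.43 ± 0.862 FPKM in the normally reared group (SD, n = 3 each), a log2 fold change of 0.73 ± 0.22 (SE, limma adjusted p = 0.645). Slc32a1 averaged 1.83 ± 0.153 FPKM in the 10-day dark group and 1.07 ± 0.0577 FPKM in the normally reared group (SD, n = 3 each), a log2 fold change of 0.45 ± 0.12 (SE, limma adjusted p = 0.410). For both, all 10-day dark libraries lay above all normally reared ones, as in 6.31% of genes. Pvalb averaged 3.60 ± 1.65 FPKM in the 10-day dark group and 1.60 ± 0.889 FPKM in the normally reared group (SD, n = 3 each), at 0.82 ± 0.32 on the log2 scale (SE, limma adjusted p = 0.993), and its libraries overlapped.

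Crh went the other way, with 0.2, 0.2 and 0.3 FPKM in 10-day dark pulldowns against 0.6, 1.1 and 1.0 FPKM in normally reared pulldowns. The groups did not overlap, as in 1.92% of genes of that level, and without the filter the log2 fold change was -0.61 ± 0.18 (SE, limma unadjusted p = 0.00342, adjusted p = 0.268). The normally reared libraries are the same ones as in the comparison with dark rearing. Microglial markers differed in level between the same groups. The median microglial share of input over 12 markers was 21.9% to 41.9% in 10-day dark and 4.08% to 9.54% in normally reared pulldowns. The summed microglial level was 92.4 to 159.7 FPKM in 10-day dark and 23.4 to 39.2 FPKM in normally reared pulldowns. Of the 9 genes called higher in this comparison, 7 were among these 12 markers (limma). The median endothelial and mural share was 20.5% to 37.7% in 10-day dark and 6.07% to 7.70% in normally reared pulldowns. Their summed level overlapped, at 21.9 to 31.4 FPKM in 10-day dark and 17.8 to 26.6 FPKM in normally reared pulldowns. Each of these shares is taken against the single input of its group. The summed pan-neuronal level overlapped, at 1170.8 to 1752.3 FPKM in 10-day dark and 906.2 to 2157 FPKM in normally reared pulldowns. None of the 20 pan-neuronal genes was called, and 18 had a positive log2 fold change, with a median of 0.22 (limma). The part of these marker lists in the members' values was not tested.

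**Figure D5:**
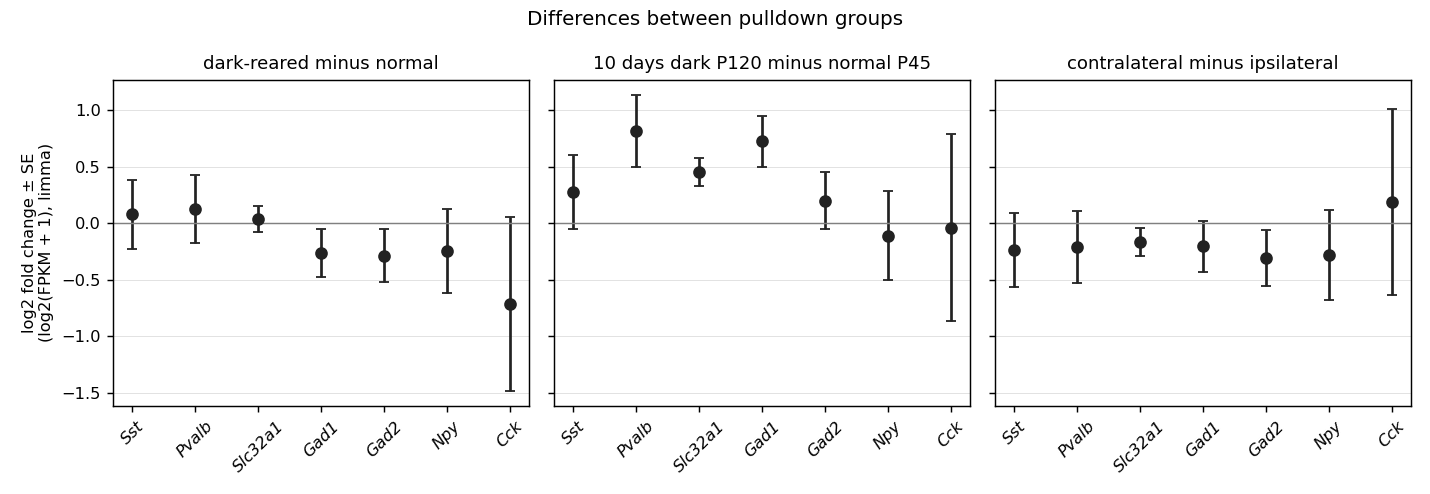
log2 fold change ± SE (limma, log2(FPKM + 1), no replicate block) of the 7 members above 1 FPKM in each of the 3 comparisons between pulldown groups. No member passes the adjusted threshold, and the 2 largest differences are Pvalb at 0.82 and Gad1 at 0.73 after 10 days of darkness at day 120.

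The inputs carry the same genes without the pulldown, with 1 library a group and so no test. Pvalb had 96.0 FPKM in the dark-reared input and 37.5 FPKM in the normally reared input, a ratio of 2.56. Cck had 604.7 FPKM in the dark-reared input and 294.6 FPKM in the normally reared input, a ratio of 2.05. Gad2 had 17.2 FPKM in the dark-reared input and 26.8 FPKM in the normally reared input, a ratio of 0.642. These were the 3 members past 1.5 times, where 20.4% of 12475 genes were higher and 20.4% lower by as much. The 2 inputs also differed by length, with a median log2 ratio of 0.94 for transcripts under 1000 bases and of -0.32 for those over 4000 bases, which lies in the same direction as short Pvalb (953 bases) and Cck against long Gad2, and its part was not tested.

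Between the monocular inputs, 9 of 10 members were lower on the contralateral side, as were 53.4% of 12535 genes, and none was past 1.5 times, where 1.42% of genes were higher and 1.32% lower by as much. Npy had 189.4 FPKM in the contralateral input and 265.6 FPKM in the ipsilateral input, and Sst had 330.4 FPKM in the contralateral input and 444.5 FPKM in the ipsilateral input. Gad2 was the gene not lower, with a ratio of 1.04. Between the 10-day dark input of day 120 and the normally reared input of day 45, Pvalb passed 1.5 times with a ratio of 1.54, where 4.06% of 12547 genes were higher by as much. Each percent of input rests on such a single library, so a group's share moves with its input as well as with its pulldowns. Group means of the members' median share were 4.36% ± 0.706 in dark-reared (n = 4), 6.81% ± 0.932 in 10-day dark, 5.46% ± 1.18 in normally reared, 3.55% ± 0.668 in contralateral and 4.11% ± 0.840 in ipsilateral pulldowns (SD, n = 3 each for the last 4), and were not tested against each other.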

How the data were processed

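Per the labels' protocols, tissue was fixed by perfusion, ribosomes were pulled down by the Ribotag method, and libraries were made from polyA RNA. The authors deposited FPKM values to 0.1, with 1 transcript per gene. The submitters' processing notes name mm10, the aligner STAR 2.5.1b, HOMER 4.10 and DESeq2, and, for base calling and quality, CASAVA 1.8.2 and FastQC 0.11.2, and give no order or settings here. Whether counting used the strand is not given in the sources used here. The table held 1 value column of another sample, which was not used. The authors' own group averages differed by at most 0.075 FPKM from means of the libraries.

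Genes with a mean above 1 FPKM over a fit were tested as log2(FPKM + 1) with limma 3.58.1 in R 4.3.3 (eBayes with trend and robust settings), 2-sided, adjusted by Benjamini-Hochberg over all genes tested, at 0.05. All 16 pulldowns shared 1 estimate of the spread, where 17 were planned. Pulldown against input used 21 libraries and a term for the group. Tests were tried on simulated data first. Counts were not among the values, so depth was estimated from the steps of values in genes under 130 bases. Percent of input used Python 3.11.15 and no test. Transcript lengths came from GENCODE vM21 and promoters from RefSeq. Length classes used 7908 genes above 5 FPKM, of which 98.1% had a length.

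The members and all gene lists were chosen with earlier results of these data known. Every member was named. From other lists at most 4 called genes, or the 2 of smallest p where none was called, could be named, and the 3 genes of highest Pearson r were named for each member above 1 FPKM. The main fits used no replicate block. For the alternative with a block, monocular replicate numbers were taken as pairs because every same-numbered pair correlated above 0.1. That pairing is read from the data and is not stated by the labels. The alternatives tried were pseudocounts, filters, scalings, a replicate block, fewer groups, leaving out each library and, chosen after seeing the data, leaving out monocular pair 2 and centring by transcript length. The value of 1 gene of a marker list is not reported here.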

Additional observations from a re-analysis of the deposited data

Results flagged for a closer look

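Slc32a1 had 1.2 FPKM in dark-reared replicate 6, against 1.1 FPKM in each of the other 3 dark-reared pulldowns. It was picked out because its gap to the nearest library equals the whole range of the group, and that gap is the rounding step of 0.1 FPKM. Of 10 genes examined in this group of 4, 1 was picked out. Chance picks out about 1 in 20 such groups where values are not rounded, and that rate need not hold for values in steps of 0.1 FPKM.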

How the results depend on the processing

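All 10 members stayed lower in pulldown than in input under the 10 alternative settings and 21 fits without 1 library, except that a filter at 5 FPKM left 8 members to test, all called. That filter called 2466 genes higher and 3604 lower, against 3185 higher and 6115 lower. Quantile normalization and median-ratio scaling moved the median of all genes from -0.31 to 0.0082 and -0.0048, and the split of calls to 4646 higher and 4638 lower, and to 4460 higher and 4608 lower. No member was called between pulldown groups under any setting. After 10 days of darkness the count of all genes called was 0 to 73 over 9 settings, with 0 at a filter of 5 FPKM and 73 without a filter, and 4 to 11 without 1 library. It was 1 to 2 and 0 to 3 for dark rearing, and 0 and 0 to 1 for monocular deprivation.

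Signs changed only among differences that passed no test. Centring by transcript length turned dark rearing to -0.16 for Sst and -0.11 for Pvalb. Leaving out 1 library gave -0.14 to 0.38 for Sst and -0.075 to 0.39 for Pvalb under dark rearing, -0.60 to 1.34 for Cck, -0.43 to 0.089 for Pvalb and -0.84 to 0.14 for Npy under monocular deprivation, and -0.40 to 0.38 for Cck and -0.18 to 0.024 for Npy after 10 days of darkness. Contralateral replicate 2, left out alone, gave the -0.60 for Cck. The replicate block turned Npy to 0.13 after 10 days of darkness, where 2 numbers were shared and same-numbered libraries correlated at 0.218 and -0.082, so they share only a number. With that block 4 genes of all were called, against 10. The block for monocular deprivation called 0 genes, with 390 at an unadjusted p under 0.05, against 84 without it, and changed no other call. No paired analysis was possible because dark-reared and normally reared columns shared 1 replicate number.

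The mean of the members' median percent of input was 5.35 in dark-reared, 7.90 in 10-day dark, 5.21 in contralateral and 5.82 in ipsilateral pulldowns with median-ratio scaling. With a pseudocount of 1 it was 8.87 in dark-reared, 11.5 in 10-day dark, 9.29 in normally reared, 7.07 in contralateral and 7.20 in ipsilateral pulldowns. Relative to genes of the same transcript length it was 5.23 in dark-reared, 4.55 in contralateral and 5.26 in ipsilateral pulldowns. Groups not listed for a setting moved by less than their SD, from 5.46 ± 1.18 in normally reared and 6.81 ± 0.932 in 10-day dark pulldowns. Rounding to 0.1 FPKM limits Crhbp, Crh and Vip, and 1 input per group leaves the error of each share unknown.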
